A study of Homo sapiens with 4 samples.

Results

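Skipped exons of the solute carrier (SLC) genes were examined in MDA-LM2, a subline of the human breast cancer line MDA-MB-231 that colonises the lung. One group was transfected with siRNAs against SNRPB2 (siSNRPB2) and the other with a control siRNA (siCtrl), both with a lipid reagent. Total RNA was taken 48 h later, from 2 libraries per group per the labels. A knockdown above 95% by quantitative PCR is stated for the 2 siRNAs used; the siRNA behind each library is not named in the sources used here. The product of SNRPB2, U2B'', belongs to the U2 particle of the spliceosome, which binds the branch point in the intron before an exon; SNRPB2 had no event from which its own level could be read. The exons were those that share a boundary with an exon of a protein-coding gene whose symbol is SLC followed by a digit (GENCODE release 29, hg38) and that had 20 or more informative reads in each group, with 1 event kept per exon. An informative read fits only the isoform with the exon (inclusion-only: reads inside it or across its junctions) or only the isoform without it (exclusion-only: reads across the skipping junction). The rule gave 266 exons in 117 genes, of 18682 exons tested in all. Of 374 such SLC genes, 212 had an event in both groups, with 587 skipped exons, and 321 of these exons missed the read minimum.

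SLC genes encode membrane proteins that carry amino acids, sugars, nucleotides, metals, ions and other small molecules across the plasma membrane and the membranes of mitochondria, lysosomes and the Golgi. Most act as secondary transporters, driven by ion gradients or by exchange of one solute for another, and proliferating tumour cells depend on several of them for glucose and amino acids. A coding exon that is left out removes a stretch of the carrier or shifts its reading frame. The symbol rule also took in 3 exons of SLC2A4RG, SLC4A1AP and SLC9A3R1, which are named after carriers and are not carriers; none of the 3 was called.

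The files hold 1 inclusion level per exon and group (ψ, from 0 for an exon always skipped to 1 for one always kept), so no difference between siSNRPB2 and siCtrl has a replicate check. An exon was called when its Bayes factor, taken from the authors' deposited table, was at least 10 and ψ differed by at least 0.1. The median SLC exon had 106.5 informative reads in siSNRPB2 and 112 in siCtrl, and the authors' ψ interval had a median width of 0.1 in siSNRPB2 and 0.09 in siCtrl. Of the markers of MDA-MB-231 cells on events, CD44 (38883 reads in siSNRPB2 and 50227 in siCtrl), ITGB1 (29026 and 35088), AXL (3948 and 5343), PLAU (674 and 1134) and ANXA1 (235 and 240) were read, and VIM, CAV1 and MSN had no event. ESR1, the gene of the estrogen receptor, for which this line is negative, had 10 reads in siSNRPB2 and 1 in siCtrl. GATA3 (173 and 353) and FOXA1 (145 and 62) had also been expected to be low or absent, but were read. GATA3 had more reads than ANXA1 in siCtrl and fewer in siSNRPB2. PGR, CDH1, EPCAM and ERBB3, of the same list, had no event. Reads of PTPRC (8 and 51), CD3E (30 and 1) and VWF (55 and 25), of blood and endothelium, were few.

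The sequences of 5 called exons that code for protein and had exclusion-only reads are shown first, because reads joined their neighbours directly in 1 group and not, or hardly, in the other, and, in SLC50A1, because 2 exons lie between the same neighbours. They are in the direction of the gene, from GENCODE transcripts, with the skipped exon in capitals and 15 nt of the neighbouring exons in lower case; reads across the skipping junction join the lower-case parts directly.
SLC15A3, 169 nt, chr11:60941122-60941290, minus strand: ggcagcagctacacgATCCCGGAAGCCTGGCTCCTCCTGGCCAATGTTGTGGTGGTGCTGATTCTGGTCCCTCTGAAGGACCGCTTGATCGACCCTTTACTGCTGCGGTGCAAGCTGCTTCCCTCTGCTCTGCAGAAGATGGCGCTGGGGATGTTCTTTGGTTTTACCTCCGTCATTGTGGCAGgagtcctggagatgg
SLC50A1, 124 nt, chr1:155136828-155136951, plus strand: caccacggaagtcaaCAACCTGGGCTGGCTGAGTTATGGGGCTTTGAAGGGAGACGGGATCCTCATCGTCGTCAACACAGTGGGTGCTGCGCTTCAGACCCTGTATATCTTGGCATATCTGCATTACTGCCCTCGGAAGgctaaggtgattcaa
SLC50A1, 162 nt, chr1:155137561-155137722, plus strand: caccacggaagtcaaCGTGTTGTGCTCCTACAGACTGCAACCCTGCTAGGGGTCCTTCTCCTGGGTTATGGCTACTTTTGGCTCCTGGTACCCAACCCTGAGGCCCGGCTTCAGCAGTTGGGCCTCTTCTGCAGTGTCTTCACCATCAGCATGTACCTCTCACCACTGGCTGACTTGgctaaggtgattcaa
SLC25A14, 86 nt, chrX:130350646-130350731, plus strand: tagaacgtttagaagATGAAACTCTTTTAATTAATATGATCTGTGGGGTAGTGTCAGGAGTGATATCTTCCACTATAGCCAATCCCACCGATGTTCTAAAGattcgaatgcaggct
SLC39A1, 131 nt, chr1:153962220-153962350, minus strand: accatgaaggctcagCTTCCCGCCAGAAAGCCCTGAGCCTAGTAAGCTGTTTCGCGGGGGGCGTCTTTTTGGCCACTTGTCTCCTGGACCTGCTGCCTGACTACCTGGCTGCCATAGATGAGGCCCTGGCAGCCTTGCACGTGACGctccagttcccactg

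Of the 266 exons, 54 were called (20.3%), against 14.7% of all tested exons. In siSNRPB2, 29 were lower (10.9%, against 7.61% of all tested exons) and 25 higher (9.4%, against 7.13%). The calls lay in 37 genes, and since alternative boundaries of an exon are counted separately, in 45 of 228 separate places. The median ψ difference was 0 over the SLC exons and 0 over all tested exons, and 49 SLC exons had a difference of exactly 0. Lower calls had a median difference of -0.28 and higher calls of 0.32. Many exons lay at an end of the scale: in both groups ψ was 0.95 or more for 78 SLC exons and 0.05 or less for 31. Among the 157 others 34.4% were called, against 27.7% of the 9951 such exons over all tested genes.

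**Figure D1:**
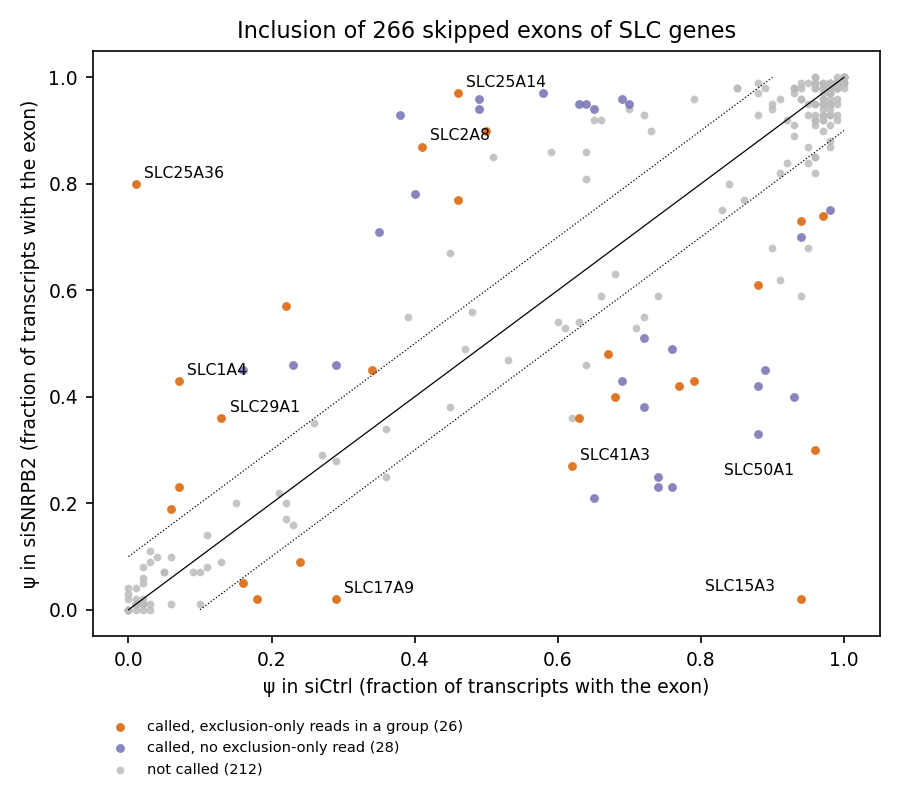
ψ of each SLC exon in siSNRPB2 (vertical axis) and siCtrl (horizontal axis); the dotted lines mark a difference of 0.1. Called exons lie on both sides of the diagonal, 29 below it and 25 above it, and the farthest from it are in SLC15A3 (0.02 in siSNRPB2 and 0.94 in siCtrl) and SLC25A36 (0.8 and 0.01).

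Reads across the skipping junction were found for 26 of the 54 calls, in 19 genes and over 21 different junctions. Among SLC exons with any exclusion-only read, 26 of 96 were called (27.1%, against 18.2% of all tested exons of this kind), and among those without any, 28 of 170 (16.5%, against 11.4%). In the second kind ψ comes from the density of reads in the exon relative to that in the exons beside it. For 21 of the 26 calls with exclusion-only reads, the share of inclusion-only among informative reads lay on the same side as ψ. In 20 of these the exact 95% binomial intervals of the groups were separate, and these intervals cover counting error only. ψ draws on these same reads and the exons were already called, so this is no separate support for the calls. The matching count over all tested exons is not given. In the other 5 of the 26 calls the share lay on the side opposite to ψ. Among these were the 69-nt exon of SLC39A9, the 162-nt and 144-nt exons of SLC50A1, and the exon of SLC35E1.

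**Figure D2:**
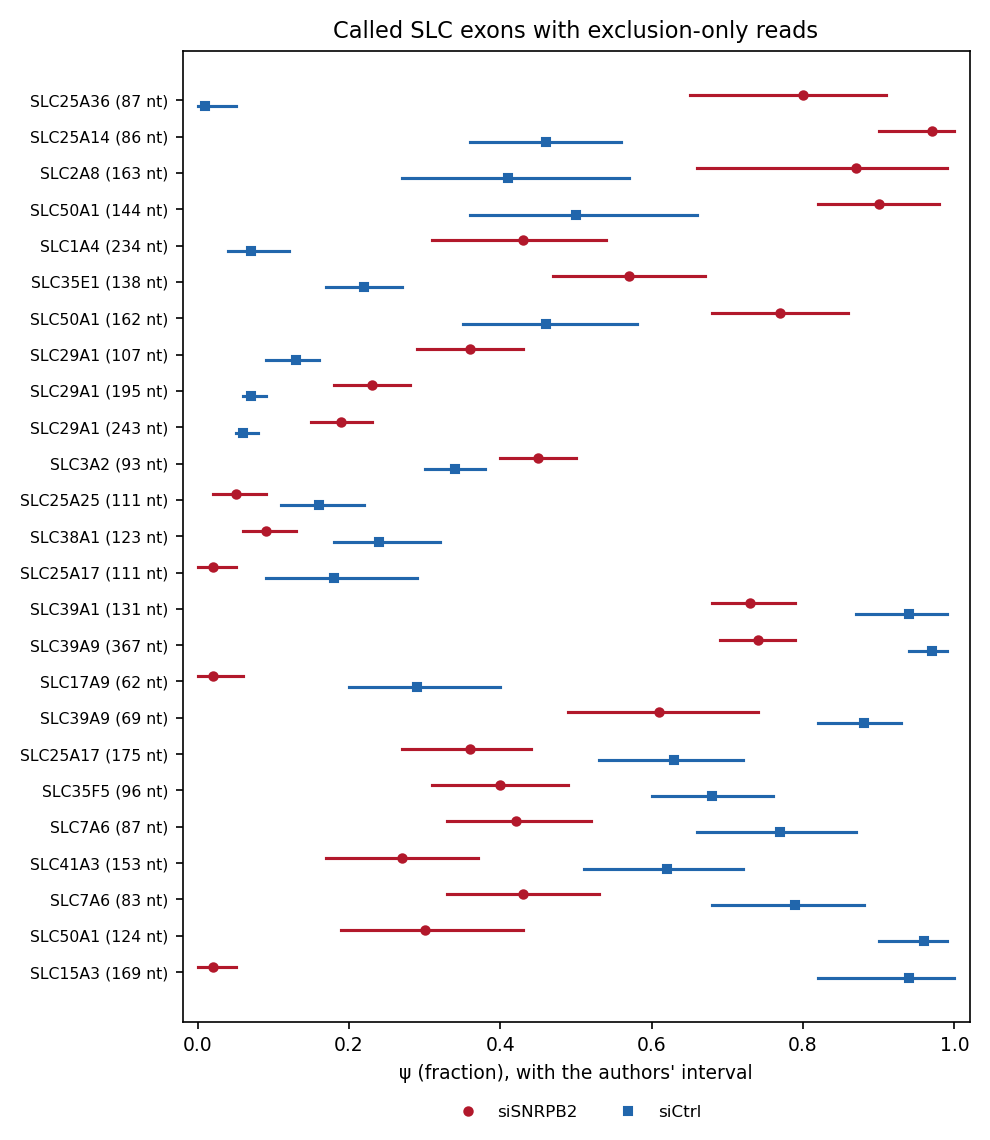
ψ of 25 of the 26 called SLC exons with exclusion-only reads in siSNRPB2 (circles) and siCtrl (squares), with lines for the authors' intervals, ordered by difference from the highest to the lowest. The intervals of the groups are farthest apart in SLC25A36 at the top (0.65 to 0.91 in siSNRPB2 and 0 to 0.05 in siCtrl) and SLC15A3 at the bottom (0 to 0.05 and 0.82 to 1).

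The largest difference of any SLC exon was in SLC15A3, a proton-coupled carrier of histidine and peptides in endosomes and lysosomes. For its 169-nt coding exon, siSNRPB2 cells gave 2 reads that fit only inclusion and 56 that fit only exclusion, and siCtrl cells 49 and 0. ψ was 0.02 in siSNRPB2 (authors' interval 0 to 0.05) and 0.94 in siCtrl (0.82 to 1), and the Bayes factor, at 1e+12 in the authors' deposited table, was the highest that any SLC exon had there. The share of inclusion-only reads was 3.45% in siSNRPB2 (exact 95% interval 0.42 to 11.9) and 100% in siCtrl (92.8 to 100). Without these 169 nt, which are not a multiple of 3, the reading frame of the annotated transcript meets a stop 87 codons after the skipping junction. Reads on the deepest event of the gene were close, with 373 in siSNRPB2 and 361 in siCtrl (log2 ratio 0.22 after scaling). This exon and those of SLC25A36, SLC17A9, SLC2A8, SLC41A3, the 124-nt exon of SLC50A1 and the 111-nt exon of SLC25A17, like several without exclusion-only reads, had fewer than 50 informative reads in a group and were chosen for description after their values were seen.

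The other member of that family, SLC15A4, which works in the same compartments and in sensing of nucleic acids by immune cells, had calls in the other direction, none with an exclusion-only read. Its 169-nt coding exon had a ψ of 0.94 in siSNRPB2 and 0.65 in siCtrl, and a form that starts later, of 111 nt and annotated for decay, had 0.93 and 0.38. Reads that fit only inclusion numbered 315 in siSNRPB2 and 176 in siCtrl for the long form and 196 and 67 for the short form. Both forms lie in 1 place of the gene and are not independent. The deepest event of the gene had 925 reads in siSNRPB2 and 703 in siCtrl (log2 ratio 0.57). It is the event of the 169-nt exon itself, so these reads include the inclusion-only reads above and are no separate measure of the gene.

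Classes were assigned by SLC family, and not every member of a family carries the substrate of its class. Among families classed as sugar carriers, 2 exons were called lower and 4 higher of 32. SLC50A1, a sugar transporter of the SWEET family, accounted for 3 of them. In siSNRPB2, 23 reads kept its 124-nt exon and 11 skipped it, and in siCtrl 179 and 0, with a ψ of 0.3 (0.19 to 0.43) and 0.96 (0.9 to 0.99). Without it the frame of its annotated transcript meets a stop 2 codons after the junction. The 162-nt exon between the same neighbours, shown above, went the other way, with a ψ of 0.77 (0.68 to 0.86) in siSNRPB2 and 0.46 (0.35 to 0.58) in siCtrl, and its length keeps the frame of its own annotated transcript, which is not the transcript used for the 124-nt exon. Reads that kept it numbered 134 in siSNRPB2 and 72 in siCtrl, but the 11 reads that skip the 124-nt exon skip this one too. A 144-nt form in a non-coding transcript had a ψ of 0.9 and 0.5, with 113 reads for it and 4 against it in siSNRPB2, and 61 and 0 in siCtrl. SLC2A8, the glucose transporter GLUT8, had a coding exon of 163 nt that 27 reads kept and 0 skipped in siSNRPB2, and 30 kept and 11 skipped in siCtrl, with a ψ of 0.87 and 0.41. SLC37A4, which moves glucose 6-phosphate into the endoplasmic reticulum, had 1 exon lower (0.21 in siSNRPB2 and 0.65 in siCtrl) and 1 higher (0.95 and 0.7), both in non-coding transcripts and without exclusion-only reads. Both tested exons of SLC2A1, the main glucose carrier of many tumour cells, had a ψ of 1 in both groups.

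Mitochondrial and related carriers of the SLC25 family were the largest group, with 6 exons lower and 4 higher of 52. SLC25A36 carries pyrimidine nucleotides into mitochondria. Its 87-nt exon, at chr3:140966348-140966434, is annotated only in transcripts expected to undergo nonsense-mediated decay. It was kept by 77 reads and skipped by 3 in siSNRPB2, and kept by 0 and skipped by 23 in siCtrl, with a ψ of 0.8 and 0.01. The share of inclusion-only reads was 96.2% in siSNRPB2 (exact 95% interval 89.4 to 99.2) and 0% in siCtrl (0 to 14.8). The 86-nt coding exon of SLC25A14, an uncoupling protein homologue also known as UCP5, was kept by 68 reads and skipped by 0 in siSNRPB2, and kept by 59 and skipped by 35 in siCtrl, with a ψ of 0.97 (0.9 to 1) and 0.46 (0.36 to 0.56). Left out, it shifts the frame to a stop 61 codons on. SLC25A17, a peroxisomal carrier of cofactors such as coenzyme A, had 2 exons that share a skipping junction, and both were lower. The 175-nt exon had a ψ of 0.36 in siSNRPB2 and 0.63 in siCtrl, the 111-nt exon 0.02 and 0.18, and the common junction had 53 reads in siSNRPB2 and 29 in siCtrl. Its other exons were not called, with a ψ between 0.93 and 0.98 or at most 0.02 in each group.

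The remaining calls of this family mostly lacked exclusion-only reads. SLC25A23, a calcium-regulated carrier of ATP-Mg and phosphate, had a 168-nt exon at 0.96 in siSNRPB2 and 0.49 in siCtrl, and SLC25A12, an aspartate-glutamate carrier, a 116-nt exon at 0.45 and 0.16. The 3 called exons of SLC25A39, linked to glutathione import into mitochondria, were all lower, at 0.38, 0.43 and 0.75 in siSNRPB2 and 0.72, 0.69 and 0.98 in siCtrl; 2 of them overlap. SLC25A25, a relative of SLC25A23, had exclusion-only reads and lay just inside the threshold, with a ψ of 0.05 in siSNRPB2 and 0.16 in siCtrl. The 111-nt coding exon of the phosphate carrier SLC25A3, tested with 2787 inclusion-only reads in siSNRPB2 and 2971 in siCtrl, had a ψ of 1 in both.

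**Figure D3:**
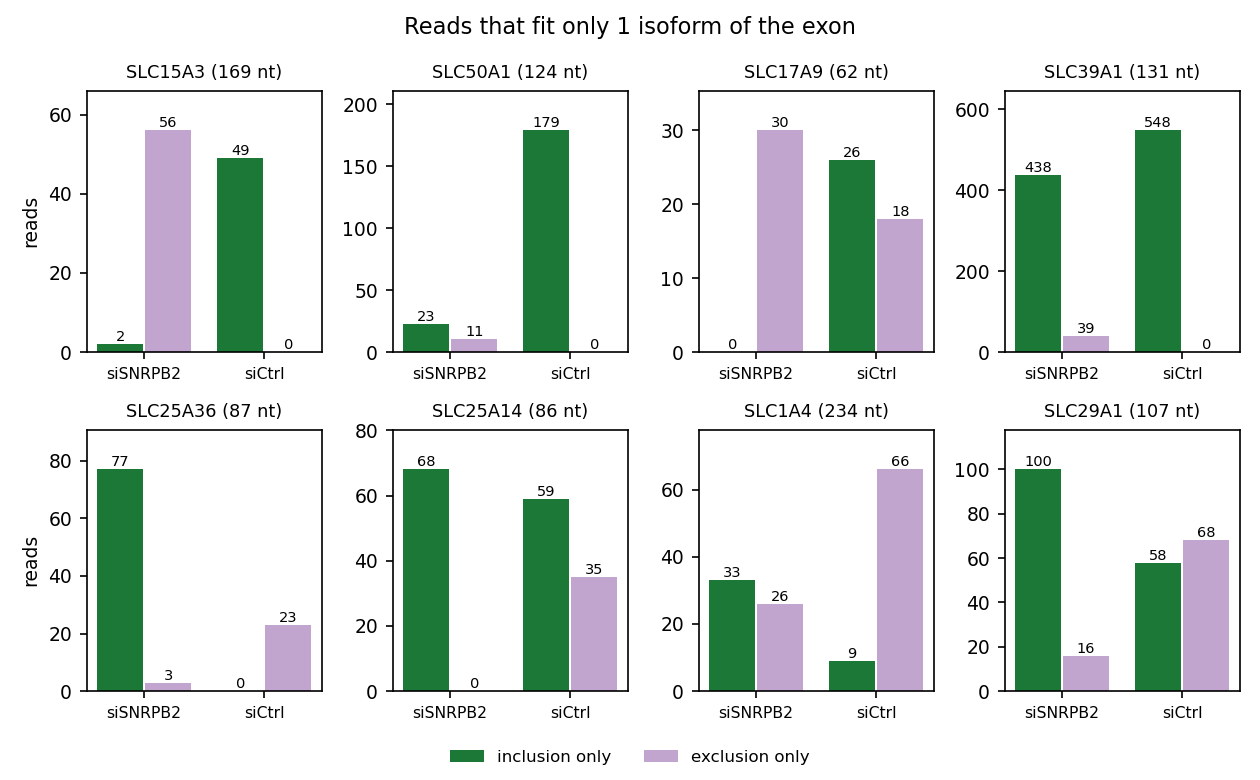
Reads that fit only inclusion (dark bars) or only exclusion (light bars) of 8 called exons, siSNRPB2 at the left and siCtrl at the right of each panel, with separate vertical axes that start at 0. In the upper row exclusion-only reads make up more of the informative reads in siSNRPB2, and in the lower row less, as in SLC25A14, where 0 reads skip the exon in siSNRPB2 and 35 in siCtrl.

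Carriers of amino acids had 5 exons lower and 3 higher of 48. SLC1A4 exchanges small neutral amino acids such as serine. Its 234-nt exon at chr2:65011312-65011545, annotated in non-coding transcripts, was kept by 33 reads and skipped by 26 in siSNRPB2, and kept by 9 and skipped by 66 in siCtrl, with a ψ of 0.43 (0.31 to 0.54) and 0.07 (0.04 to 0.12). Reads on the deepest event of SLC1A4 were fewer as well, 44 in siSNRPB2 and 157 in siCtrl (log2 ratio -1.64, and -1.18 with all its events summed). SLC38A1 takes up glutamine. Its 123-nt exon in the 5' UTR was kept by 21 reads and skipped by 93 in siSNRPB2, and kept by 42 and skipped by 26 in siCtrl. The share of inclusion-only reads was 18.4% (exact 95% interval 11.8 to 26.8) and 61.8% (49.2 to 73.3), and ψ was 0.09 and 0.24. SLC7A6 is a light chain that pairs with SLC3A2 to exchange cationic for neutral amino acids. A 5' UTR exon of it had a ψ of 0.43 in siSNRPB2 and 0.79 in siCtrl, with 26 exclusion-only reads against 10, and 0.42 and 0.77 in a form 4 nt longer that shares these reads. Its 124-nt coding exon had a ψ of 0.33 and 0.88 without any exclusion-only read. The same holds for SLC43A1, a carrier of large neutral amino acids (0.42 and 0.88), and for SLC6A6, the taurine transporter (0.96 and 0.69).

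SLC3A2 itself, the heavy chain CD98 that brings several light chains to the cell surface, had 9 exons tested. The 93-nt exon at chr11:62871577-62871669 lay just inside the threshold, with a ψ of 0.45 in siSNRPB2 and 0.34 in siCtrl, and 1 exclusion-only read against 12. A 124-nt exon in the 5' UTR was kept by 44 reads and skipped by 440 in siSNRPB2, and kept by 0 and skipped by 509 in siCtrl. Its ψ of 0.03 and 0 differed too little to be called, although the authors' deposited table lists a Bayes factor of 1e+12. SLC7A11, the cystine importer, had an exon at 0.46 in siSNRPB2 and 0.64 in siCtrl and was not called; the authors' deposited table gives it a Bayes factor of 1.53. The 2 exons of SLC38A2, another glutamine carrier, differed by 0.02 or less. SLC1A5, SLC7A5, SLC16A1 and SLC25A5 had no exon with enough reads.

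Metal carriers had 4 exons lower and 2 higher of 27, with zinc importers in both directions. The 131-nt coding exon of SLC39A1, the zinc importer ZIP1, was kept by 438 reads and skipped by 39 in siSNRPB2, and kept by 548 and skipped by 0 in siCtrl. ψ was 0.73 (0.68 to 0.79) and 0.94 (0.87 to 0.99), and the frame without the exon meets a stop 53 codons after the junction. This exon also shares a boundary with another annotated protein-coding gene. SLC39A9 (ZIP9) had 2 lower exons. The one of 367 nt, annotated for decay, was skipped by 38 reads in siSNRPB2 and 3 in siCtrl, with a ψ of 0.74 and 0.97. In the coding one of 69 nt, ψ was 0.61 and 0.88 although fewer reads skipped it in siSNRPB2, 2 against 12 in siCtrl. SLC41A3, a magnesium carrier, had a 153-nt coding exon at 0.27 and 0.62. It was kept by 26 reads and skipped by 14 in siSNRPB2, and kept by 82 and skipped by 20 in siCtrl, and the exact intervals of the inclusion-only share overlapped (48.3 to 79.4% and 71.3 to 87.6%). The exons of SLC39A13 (0.46 in siSNRPB2 and 0.23 in siCtrl) and SLC39A4 (0.94 and 0.49) were higher, without exclusion-only reads. SLC39A14, a carrier of zinc, iron and manganese, lay just outside the threshold with a 5' UTR exon at 0.01 and 0.1. It had 0 inclusion-only reads in siSNRPB2 and 35 in siCtrl, and the median difference over all events of the exon was -0.22, which is past the threshold. Exons of SLC11A2, the divalent metal transporter DMT1 (0.96 in siSNRPB2 and 0.98 in siCtrl, and 0.85 and 0.96), and the 3 of SLC30A5, a zinc exporter, were not called.

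The SLC35 family, counted as a whole, had 4 exons lower and 5 higher of 42. It includes nucleotide sugar carriers that feed glycosylation in the Golgi, but not all its members are such carriers. Only SLC35F5 and SLC35E1 among its called genes had exclusion-only reads. The SLC35F5 exon, of 96 nt and annotated for decay, was kept by 49 reads and skipped by 54 in siSNRPB2, and kept by 113 and skipped by 38 in siCtrl, with a ψ of 0.4 and 0.68. SLC35A2, the UDP-galactose carrier, had 3 exons higher, a 144-nt one at 0.95 in siSNRPB2 and 0.63 in siCtrl and 2 overlapping ones at 0.71 and 0.78 in siSNRPB2 and 0.35 and 0.4 in siCtrl. SLC35B2, which brings the sulfate donor PAPS into the Golgi, had 2 overlapping exons lower, at 0.45 and 0.7 in siSNRPB2 and 0.89 and 0.94 in siCtrl. SLC35E1 (0.57 and 0.22) and SLC35C2 (0.95 and 0.64) were higher and SLC35E2A, which has a near-identical neighbour in SLC35E2B, was lower (0.51 and 0.72).

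Of the nucleoside carriers, SLC29A1 (ENT1), the main route of nucleosides and their drug analogues into many cells, had 3 overlapping 5' UTR exons, all higher. The 107-nt form was kept by 100 reads and skipped by 16 in siSNRPB2, and kept by 58 and skipped by 68 in siCtrl. The share of inclusion-only reads was 86.2% in siSNRPB2 (exact 95% interval 78.6 to 91.9) and 46% in siCtrl (37.1 to 55.1). ψ was 0.36 and 0.13, and 0.23 and 0.07 or 0.19 and 0.06 in the longer forms. The 3 forms share these 16 and 68 reads. SLC17A9, the vesicular carrier of ATP, had a partly coding exon of 62 nt that 0 reads kept and 30 skipped in siSNRPB2, and 26 kept and 18 skipped in siCtrl, with a ψ of 0.02 and 0.29.

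Ion carriers had 3 exons lower and 1 higher of 22. The anion exchanger SLC26A6 had 2 overlapping exons lower (0.23 and 0.74, and 0.25 and 0.74) and the bicarbonate carrier SLC4A7 1 higher (0.46 and 0.29), none with exclusion-only reads. The exon of the sodium-potassium-chloride carrier SLC12A2 was at 0.99 and 0.95. In the phosphate carrier SLC20A1 an exon annotated for decay had 1 inclusion-only read in siSNRPB2 and 16 in siCtrl, at a ψ of 0 and 0.01. Further calls without exclusion-only reads were in SLC44A2, a choline-like carrier (0.23 in siSNRPB2 and 0.76 in siCtrl), and in SLC33A1, which moves acetyl-CoA into the endoplasmic reticulum (0.97 and 0.58 for one exon, 0.49 and 0.76 for another). The 2 exons of SLC16A3, the lactate exporter, had a ψ of 1 in both groups. None of the 4 exons of families classed as vitamin carriers was called.

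Close to the threshold, SLC3A2 (0.11) and SLC25A25 (-0.11) were the nearest inside it, and SLC39A14 (-0.09) and SLC6A6 (0.06, in a 129-nt exon) the nearest outside with a Bayes factor of at least 10. In all, 6 SLC exons had such a Bayes factor and a smaller difference.

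Structure was compared between called and other SLC exons. The median length was 128 nt among lower calls and 158 nt among higher calls, against 132 nt among SLC exons not called. The median intron before the exon was 1305 nt among lower and 1549 nt among higher calls, against 1990.5 nt in those not called and 2189.5 nt over all tested exons. Of 17 fully coding exons called lower, 6 had a length that is a multiple of 3, as had 7 of 14 called higher and 49 of 130 not called. The skipping junction was annotated for 50 of the 54 calls and 246 of the 266 SLC exons. No test was made of these differences.

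Reads per gene were taken as those compatible with either isoform on the deepest event of a gene, scaled to the total of the group, as a stand-in for the gene's level. In RNA of whole cultures, fewer cells with a transcript and less of it per cell cannot be told apart. Of 180 SLC genes with at least 20 reads on average, 151 stayed within 2-fold. In siSNRPB2, 17 were at least 2-fold higher (9.44%, against 6.54% of 9563 protein-coding genes) and 12 at least 2-fold lower (6.67%, against 4.6%). The median log2 ratio was 0.01 over SLC genes and 0.01 over protein-coding genes. The widest ratios were those of genes with few reads, such as the nucleotide sugar carrier SLC35B4 (20 reads in siSNRPB2 and 136 in siCtrl, log2 ratio -2.53). Of 127 SLC genes with at least 100 reads, 5 were past 2-fold higher and 1 lower. Of 44 with at least 1000 reads, none was past 2-fold, with log2 ratios between -0.67 and 0.59. Shares over all protein-coding genes are not given at the minimums of 100 and 1000 reads. These counts can therefore not be read as particular to SLC genes.

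SLC2A3, the high-affinity glucose transporter GLUT3, had 496 reads in siSNRPB2 and 194 in siCtrl, a log2 ratio of 1.53 (exact 95% interval 1.29 to 1.78, counting error only). SLC2A14, its near-identical paralogue, had 212 and 81 reads (1.55), and reads could be shared between the 2 genes. SLC7A2, a carrier of cationic amino acids, had 438 and 185 reads (1.41, interval 1.17 to 1.68). SLC29A3, a nucleoside carrier of lysosomes, had 159 and 87 (1.04, interval 0.66 to 1.44). SLC22A18AS, the antisense partner of an organic cation carrier, had 185 and 90 (1.21, interval 0.84 to 1.6). The intervals of SLC29A3 and SLC22A18AS both reach below 2-fold. Whether strand was used in the counting is not given in the sources used here. SLC2A6, a glucose transporter of lysosomes, was the only SLC gene of at least 100 reads past 2-fold lower, with 59 reads in siSNRPB2 and 181 in siCtrl (-1.43, interval -1.89 to -1.01). The next lowest log2 ratios, within 2-fold, were those of the sugar transporter SLC50A1 (-0.92, and -0.62 with all its events summed), the sodium-proton exchanger SLC9A5 (-0.88, but -0.02 with all its events summed), SLC12A9 of the cation-chloride family (-0.87, and -0.39 summed), the cystine importer SLC7A11 (-0.82), SLC38A10 of the amino acid family of SLC38A1 (-0.74), the mitochondrial iron carrier SLC25A28 (-0.72) and the mitochondrial citrate carrier SLC25A1 (-0.71). The next highest were those of the CMP-sialic acid carrier SLC35A1 (0.93), SLC4A11 of the bicarbonate family (0.91) and SLC4A1AP (0.83).

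Of the genes on the fixed list, those measured by reads were within 2-fold, with SLC7A11, given above, the lowest. SLC3A2 had 15520 reads in siSNRPB2 and 17627 in siCtrl (log2 ratio -0.01), SLC16A3 8374 and 9022 (0.07), SLC25A3 6689 and 7092 (0.09), SLC2A1 2792 and 3553 (-0.17, and -0.03 with all its events summed) and SLC38A2 1234 and 1447 (-0.05). SLC20A1 (0.48) and SLC4A7 (0.46) were somewhat higher, and SLC11A2 was at -0.64 on 87 and 154 reads, but at -0.05 with all its events summed. The ratios of SLC12A2 (0.37), SLC39A14 (0.28), SLC29A1 (-0.13) and SLC30A5 (-0.16) lay between these. By class, the median log2 ratio ran from -0.15 in the 25 amino acid carriers, 16 of them below 0, to 0.08 in the 34 mitochondrial carriers among classes of at least 10 genes. All 37 genes with a called exon were measured by reads. Of these 24 were below 0 and 13 above, with a median of -0.13, and SLC1A4 was the only one past 2-fold.

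**Figure D4:**
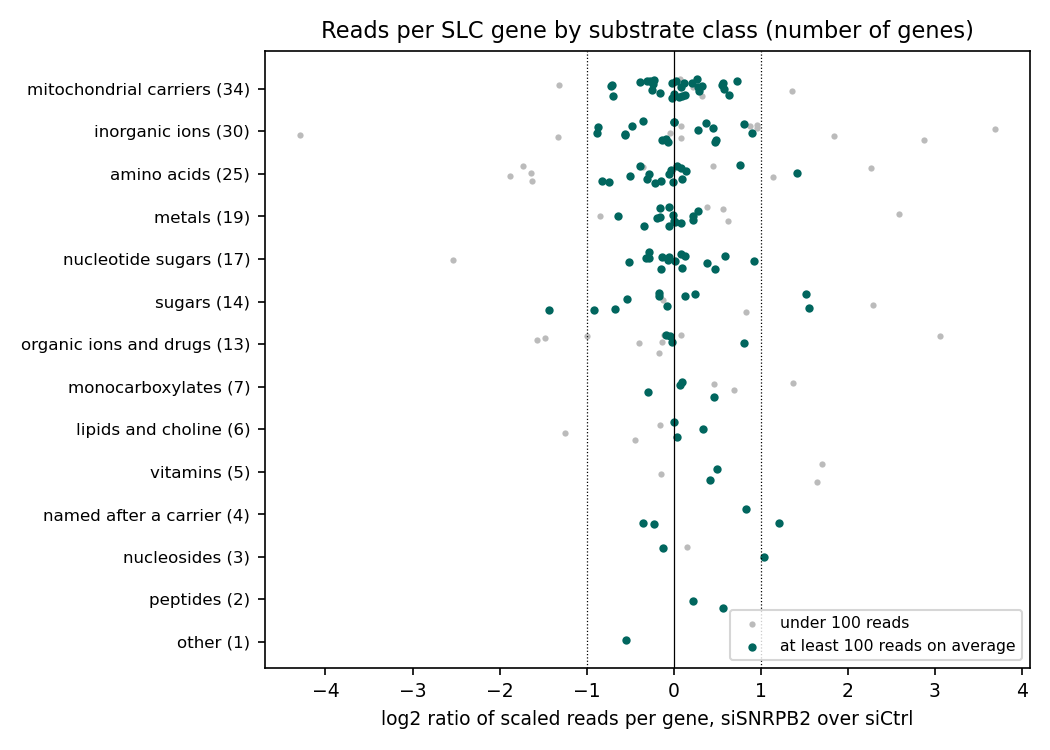
Log2 ratio of scaled reads per gene, siSNRPB2 over siCtrl (horizontal axis), for 180 SLC genes by substrate class, with dark points for genes of at least 100 reads on average and dotted lines at 2-fold. Most dark points lie within the dotted lines, and the 5 past 2-fold higher are SLC2A3, SLC2A14, SLC7A2, SLC29A3 and SLC22A18AS.

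Transport genes without an SLC symbol were counted by the same rule, under which 7.61% of all tested exons were lower and 7.13% higher. Of 33 exons of MFSD and related major facilitator genes 3 were lower and 0 higher, with MFSD13A at 0.44 in siSNRPB2 and 0.93 in siCtrl (kept by 44 reads and skipped by 11 in siSNRPB2, kept by 76 and skipped by 0 in siCtrl). P-type ATPases, the ion pumps and lipid flippases, had 4 lower and 1 higher of 26. V-type ATPase subunits, which acidify lysosomes, had 2 and 3 of 42. Mitochondrial transport genes outside the symbols had 4 and 3 of 34, with MICU2, a regulator of the calcium uniporter, at 0.97 and 0.46. ABC transporters had 1 and 2 of 39, SLCO organic anion transporters 0 and 1 of 4 (SLCO4A1, 0.7 and 0.56, skipped by 49 reads and 99), and ancillary proteins of carriers 0 of 9. The exons with the largest difference in the ATPases and ABC transporters were in ATP11A (0.62 and 0.31), ATP6AP2 (0.87 and 0.46) and ABCD4 (0.5 and 0.97), all without exclusion-only reads. By reads, for which the shares over all protein-coding genes were 6.54% higher and 4.6% lower, 3 of 24 P-type ATPase genes were past 2-fold higher and 1 lower. Of 19 ABC transporter genes 3 were higher and 2 lower, of 6 SLCO genes 1 and 1, and in each other list 0 were higher and at most 1 lower.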

How the data were processed

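Total RNA of 4 libraries, 2 per group, was sequenced with a stranded kit for low input, per the labels. The submitters' processing notes name STAR 2.7 and hg38. Per the file headers, the authors ran MISO on skipped-exon events and deposited ψ as a fraction from 0 to 1, its interval, and read numbers per class of isoform fit. The authors' deposited comparison holds the ψ difference, siSNRPB2 minus siCtrl, a signed score, and the Bayes factor, a ratio of evidence for over against a difference. Neither the interval's level, the MISO version and its event source, nor how a group's libraries were combined and repeat reads treated is given in the sources used here.

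From these files, exons were matched to GENCODE release 29 (hg38) by strand and boundary. For each exon the event with the most informative reads was kept, with at least 20 in each group. Gene ratios were log2 values with a pseudocount of 1 read, where the mean was at least 20 reads. Exact intervals are Clopper-Pearson at 95%; they treat reads as independent and cover counting error only. Reads were not used for p-values, since the files hold 1 value per group. The gene ratio was checked on simulated data with known changes. The simulated reads varied by counting error only, so the check cannot speak to a spread between libraries. Sequences, positions and frames came from GENCODE transcripts; there was no genome sequence for splice sites.

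The SLC genes, the classes by SLC family and the transport lists were chosen with earlier results of these data known. The rule for named exons was up to 12 called exons per direction, with at least 50 informative reads in each group and 1 per gene; for named genes it was the 8 highest and 8 lowest of at least 100 reads, with 17 fixed genes for both. Most other called exons are named too; some genes that enter the counts are not reported here by name. Genes named after a carrier were set apart after the data were seen. Software was numpy 2.4.6, scipy 1.17.1, pandas 2.3.3 and, for figures, matplotlib 3.10.9, under Python 3.11.15.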

Additional observations from a re-analysis of the deposited data

Results flagged for a closer look

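Reads in the span of an event that match neither of its isoforms entered no comparison. On the events of the 266 SLC exons they made up 42.6% of reads in siSNRPB2 and 39.2% in siCtrl, a level above that of the control cells. On the other tested events they made up 52.3% in siSNRPB2 and 50.4% in siCtrl. Set against compatible reads, they were more frequent in siSNRPB2 for 162 of the 266 exons, with a median log2 difference of 0.19. Their part in the called differences was not tested.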

How the results depend on the processing

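The counts of SLC calls (54, 29 lower and 25 higher) depended on the read requirement. With at least 50 informative reads 38 were called, and the balance turned to 17 lower and 21 higher. Of these counts only that of the lower calls moved by over 1.5 times. With no minimum 102 were called, 48 lower and 54 higher, and each count moved by over 1.5 times. With at least 5 exclusion-only reads in a group 24 of 84 were called, 15 lower and 9 higher. That is 28.6%, against 19.2% of all tested exons of this kind. For the other alternative settings no share over all tested exons is given. Their counts, and the turn of the balance, can therefore not be read as particular to SLC exons. By the inclusion-only share in place of ψ, with separate exact intervals, 29 were called, 17 lower and 12 higher, and the difference reversed for SLC39A9 (0.031, 69-nt exon), SLC50A1 (-0.0342, 144-nt exon) and SLC35E1 (-0.00546). Of the named exons 32 moved by more than their interval under that share, and 23 did not. An exon without exclusion-only reads has the same share in both groups by construction, so it cannot be called by the share. Several of the 32 were exons of this kind, such as those of SLC15A4, SLC25A23 and SLC26A6. Other thresholds of ψ (0.2 and 0.05), of the Bayes factor (100), separate ψ intervals, both boundaries annotated and the median over events gave 46 to 56 calls. Chosen after seeing the data, counting overlapping exons once gave 40 calls, and leaving out exons shared with another gene 51. The 40 is below the 45 places given above, which count every place with any called form. The median ψ difference was 0 throughout. By reads, 17 genes were past 2-fold higher and 12 lower. With at least 100 reads these counts were 5 and 1, and with no minimum 30 were higher. Shares over all protein-coding genes under these other minimums are not given. A pseudocount of 5, summing events or scaling to the median gene gave 17 to 21 higher and 12 or 13 lower. Whether calls without exclusion-only reads reflect splicing was not tested. A read requirement changes by construction how many exons or genes can be called; the cause of the reversals was not tested. No paired analysis was possible because the files hold no value per library, and for the same reason no replicate could be left out.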
